A study of Drosophila melanogaster with 80 samples.

Results

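The 69 mitochondrial ribosomal protein genes described here have a platform symbol that begins with mRpL (44 genes) or mRpS (25 genes). They are 69 of 11982 genes with a named probe set. The subunit, large for mRpL and small for mRpS, was read from the symbol alone. Only probe sets with 1 gene symbol were used, and a gene with several was read from the probe set that was brightest on average across all 80 arrays. The symbols came from 71 probe sets, because mRpS11 and mRpL47 have a second one. All 69 symbols matched current RefSeq symbols through their Entrez identifiers. mRpS18B was read from a probe set that can match transcripts of other genes, and mRpS10 and mRpL53 share probe sets with other genes and are outside the rule. All 69 genes passed the filter on dim signals in every comparison.

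Mitochondrial ribosomes translate the few proteins encoded by mitochondrial DNA, which are core subunits of the respiratory chain and the ATP synthase. Their protein components are encoded in the nucleus, translated in the cytosol and imported into the organelle, where they assemble with ribosomal RNA made from mitochondrial DNA. The small subunit binds the messenger RNA and holds the decoding centre, and the large subunit joins the amino acids. Some mitochondrial ribosomal proteins are named after a bacterial counterpart, and others were added during the evolution of the organelle.

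Whole adults of the fruit fly Drosophila melanogaster, from the wild-type laboratory stock Oregon R, were measured in 20 groups of 4 arrays. All were unmated males or virgin females kept at 30 flies per vial for 14 days at 25 °C, and ate food with 0.15 M sucrose (the control diet, CD) or with 1 M sucrose (the high-sucrose diet, HSD). F0 males and F0 females on each diet gave 4 groups. The 16 groups of descendants were F1 and F2 flies of each sex on each diet whose F0 male ancestors had eaten CD or HSD, called CD ancestry and HSD ancestry below. For the F2 groups the labels do not give the diet of the F1 parents, which an F2 ancestry difference may therefore include. No group carries a transgene. The question of the series is whether gene expression in descendants depends on what their F0 male ancestors ate. Nothing in the labels says that the arrays of a group are from different vials, so the p-values cover the spread between arrays, and part or all of it may be technical.

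Signals are on the log2 scale, and array medians ran from 5.16 to 7.34. The deposited values form 10 separately normalized sets of 8 arrays: F0 males, F0 females, and each combination of generation, sex and own diet in the descendants. Diet in F0 and ancestry in the descendants were therefore tested within a set, and sex and the descendants' own diet were not tested. Markers set the sexes apart as labelled: the mean of 14 eggshell genes lay at 9.74 to 11.96 in female arrays and 4.21 to 5.68 in male arrays, and that of 20 testis genes at 3.85 to 5.86 and 8.80 to 10.2. In 6 arrays of HSD ancestry transcripts limited to the opposite sex stood on average 0.59 to 0.89 above the lowest array of the set. These were replicates 1 and 4 of CD-fed F1 males, replicate 1 of HSD-fed F1 females, and replicates 1, 2 and 4 of HSD-fed F2 males. Smaller excesses of up to 0.39, under the limit of 0.5, occurred in arrays of both ancestries. Ancestry comparisons within the sets that hold any of the 6 arrays are given with and without those arrays. Other values include them unless stated.

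The mean signal of the 69 genes differed little between arrays of a group. It was 8.84 ± 0.03 in CD-fed and 8.79 ± 0.04 in HSD-fed F0 males, and 9.84 ± 0.02 and 9.81 ± 0.05 in F0 females (SD, n = 4 arrays each). Among descendants the group means ran from 8.48 ± 0.04 in HSD-fed F2 males of CD ancestry to 10.17 ± 0.01 in HSD-fed F1 females of CD ancestry. The widest group was the HSD-fed F2 males of HSD ancestry, in which replicate 2 stood at 8.74 and the other arrays at 8.50 to 8.52. That replicate is also the array with the largest excess of female-limited transcripts.

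**Figure D1:**
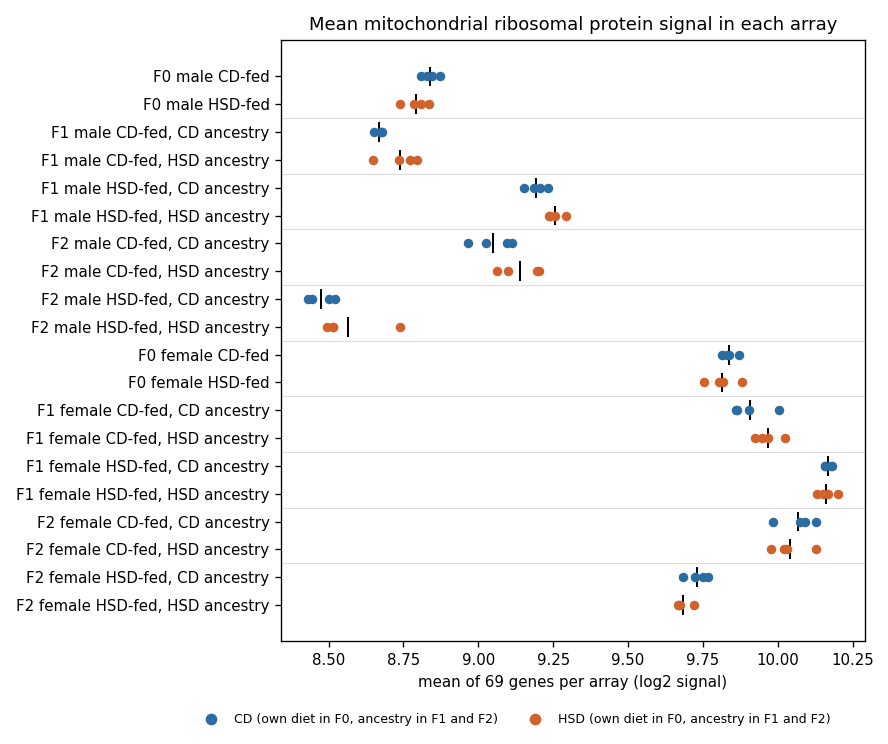
Mean log2 signal of the 69 mitochondrial ribosomal protein genes in each of the 80 arrays (points) with the group mean (vertical bar), 1 row per group. Every female group lies above every male group, and within a set the groups of the 2 diets or ancestries lie close together. Rows separated by a grey line belong to separately normalized sets.

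Female flies had more mitochondrial ribosomal protein transcript, relative to other genes, than male flies in each of the 10 pairs of groups matched for generation, diet and ancestry. The median female minus male difference over the 69 genes was between 0.91 and 1.31 log2 units, while the median over all genes was between -0.10 and 0.01. All 69 genes lay above the all-gene median in all 10 pairs. These differences lie between separately normalized sets, so they have no test, and sex and set cannot be told apart. Whole flies also differ in tissue make-up: markers of the female germline averaged 4.20 to 5.47 log2 units more in females, and those of flight and body muscle 0.86 to 1.70 less. In whole-fly RNA, fewer cells of a type and less RNA per cell cannot be told apart.

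The size of the sex difference varied among the genes. After subtraction of the all-gene median, mRpL39, whose mammalian counterpart resembles a threonyl-tRNA synthetase, was 2.21 to 2.58 log2 units higher in females, with a median of 2.26. Its signal lay at 7.06 to 8.45 in the 40 male arrays and at 9.45 to 10.5 in the 40 female arrays, with no overlap. The medians of mRpL12, a protein of the stalk that recruits translation factors in bacteria, and of mRpS18A were 1.87 and 1.76. At the other end stood mRpL28, with a median of 0.36 and a range of 0.11 to 0.56, and mRpL2, a protein close to the peptidyl transferase centre, with a median of 0.41. Many genes of other groups also lay higher in females. All 10 genes of mitochondrial DNA maintenance and transcription lay above the all-gene median in every pair, and so did 10 or 11 of 14 mitochondrial tRNA synthetases. So did 34 of 41 cytosolic ribosomal proteins in every pair, with a list median of 0.21 to 0.37 above the all-gene median, and 10 to 13 of 17 protein import genes. Of 72 respiratory chain subunits, 5 to 39 did so, and the median of that list was -0.48 to 0.03 on the same scale. That list was drawn by symbol and includes genes too dim to test in F2 females, such as COX5BL and COX7AL. The part of such genes in its median was not tested. For the cytosolic ribosomal proteins the list mean, unlike the median, was lower in females in every pair, with differences of -0.30 to -0.07. The list mean of the import genes was lower in females in every pair as well. On CD in F0 it lay at 8.79 to 8.82 in females and 9.72 to 9.74 in males. The 2 mitochondrial ribosomal proteins that carry other symbols, tko (the S12 protein of the decoding centre) and bonsai (the S15 protein), lay above the all-gene median in every pair.

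**Figure D2:**
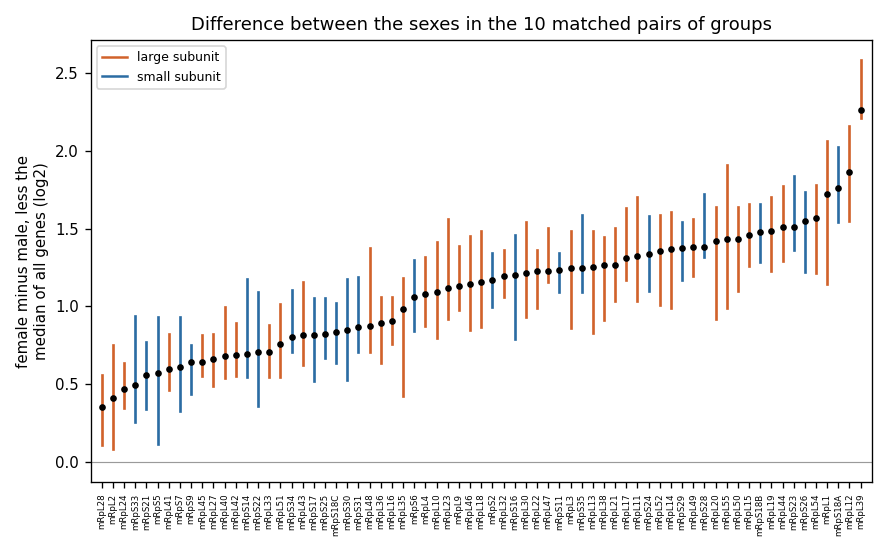
Female minus male difference of each of the 69 genes, less the all-gene median of the same pair of groups, on the log2 scale. Lines span the lowest to the highest of the 10 matched pairs and dots mark the median, which runs from 0.36 for mRpL28 to 2.26 for mRpL39. All lines lie above 0.

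The first diet comparison asked how F0 males that ate the high-sucrose diet themselves differed from those on CD. Of the 69 genes 11 fell and 1 rose in HSD-fed F0 males, by at most 0.18 log2 units (limma, Benjamini-Hochberg adjusted p under 0.05 over all genes tested). Over all 10950 genes tested 30.7% passed, with 19.6% higher and 11.1% lower. The HSD mean was below the CD mean for 52 of the 69 genes, and the median change was -0.06, against 0.02 over all genes. The arrays of the 2 diets did not overlap for 23.2% of the 69 genes and for 32.5% of all genes. Of the 12 genes that passed, mRpL46 alone had overlapping arrays. Without HSD replicate 3 the median change was -0.03. Markers of testis moved in the same comparison: 13 of 20 were higher and none lower, with a median of 0.21. Of 9 fat body markers 4 fell and 1 rose, with their mean at 9.90 to 9.92 on CD and 9.66 to 9.73 on HSD. Of 11 muscle markers 3 rose and none fell, with their mean at 10.33 to 10.41 on CD and 10.44 to 10.58 on HSD. The part of these tissues in the result was not tested.

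The largest falls in F0 males were in the small subunit. mRpS28 stood at 8.89, 8.94, 8.89 and 8.82 in the CD arrays and at 8.73, 8.72, 8.63 and 8.76 in the HSD arrays. All HSD arrays lay below all CD arrays, a log2 change of -0.18 (SE 0.04, adjusted p = 0.0109 by limma). mRpS9, whose bacterial counterpart contacts the transfer RNA in the peptidyl site, read 9.48, 9.59, 9.59 and 9.55 on CD and 9.35, 9.43, 9.32 and 9.43 on HSD. The groups did not overlap, and the change was -0.17 (SE 0.04, adjusted p = 0.0142). In the large subunit mRpL33 (-0.15), mRpL35 (-0.14), mRpL1 (-0.14), mRpL13 (-0.14), mRpL28 (-0.13), mRpL46 (-0.12), mRpL11 (-0.12), mRpL42 (-0.12) and mRpL9 (-0.11) fell.

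The rise in F0 males was in mRpS18A, a protein whose mammalian counterpart lies in the large subunit despite its name. It read 8.998, 9.07, 9.01 and 9.08 on CD and 9.17, 9.15, 9.17 and 9.17 on HSD, a change of 0.12 (SE 0.03, adjusted p = 0.0217 by limma). All HSD arrays lay above all CD arrays, but after quantile normalization of the arrays the change was 0.09 with an adjusted p of 0.0929. tko had a change of -0.10 (adjusted p = 0.0996) and bonsai one of -0.06 (adjusted p = 0.465).

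The count of 12 genes in F0 males rested on single arrays. Without CD replicates 2, 3 or 4 it was 5, 6 and 3, and without HSD replicates 2 or 4 it was 7 and 5. The calls of mRpS28 and mRpS9 held with each array left out in turn, that of mRpL28 was lost only without CD replicate 4 (adjusted p = 0.0515), and that of mRpL11 was lost in 6 of the 8 fits.

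F0 females were compared in the same way, and more of the 69 genes passed, in both directions. On HSD 16 genes fell and 6 rose, with changes from -0.27 to 0.37 log2 units. Over all 10251 genes tested 41.4% passed, with 23.1% higher and 18.2% lower. The median change was -0.03, against 0.02 over all genes, and 41 of the 69 genes had a lower mean on HSD. The median was -0.05 without HSD replicate 1 and -0.02 without HSD replicate 2 or 4. The diets' arrays did not overlap for 39.1% of the 69 genes, all 22 that passed among them, and for 41.5% of all genes. Eggshell markers moved in the same comparison, with all 14 higher in the mean on HSD, 4 of them past the threshold, and a median of 0.48. Of 11 muscle markers 6 rose and none fell, with a median of 0.22. Of 9 fat body markers 4 fell and 1 rose, with their mean at 12.30 to 12.37 on CD and 11.81 to 11.88 on HSD, and of 9 neuron markers 2 rose, with means of 5.80 to 6.04 and 6.05 to 6.13. The part of these tissues in the result was not tested.

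Genes with an mRpS symbol gave both the largest rise and several of the largest falls in F0 females. mRpS14 read 9.82, 9.84, 9.83 and 9.97 on CD and 10.48, 10.20, 10.20 and 10.06 on HSD. The HSD arrays all lay above the CD arrays but were spread widely, with replicate 1 highest, and the change was 0.37 (SE 0.08, adjusted p = 0.00667 by limma). mRpS5, which in bacteria lines the entry channel of the messenger RNA, read 11.18, 11.12, 11.16 and 11.18 on CD and 11.40, 11.35, 11.37 and 11.36 on HSD. Its spread within each diet was small beside the change of 0.21 (SE 0.04, adjusted p = 0.00168). mRpS31 stood at 9.95, 9.92, 9.93 and 9.96 on CD and 9.67, 9.68, 9.72 and 9.75 on HSD. With no overlap between the diets, it fell by 0.23 (SE 0.04, adjusted p = 0.00104), and mRpS9 (-0.24), mRpS30 (-0.21), mRpS22 (-0.19), mRpS28 (-0.18), the GTP-binding protein mRpS29 (-0.16) and mRpS18B (-0.16) fell as well.

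In the large subunit mRpL51 fell most in F0 females. It read 10.02, 10.05, 10.002 and 10.05 on CD and 9.86, 9.83, 9.76 and 9.60 on HSD, a change of -0.27 (SE 0.06, adjusted p = 0.00546 by limma). Every HSD array was below every CD array, with HSD replicate 4 lowest. mRpL2 (-0.23), mRpL44 (-0.23), which has an RNase III-like fold in mammals, mRpL45 (-0.16), which sits at the membrane end of the exit tunnel in mammals, mRpL13 (-0.15), mRpL19 (-0.15), mRpL28 (-0.15), mRpL15 (-0.12) and mRpL50 (-0.12) fell. The rises were in mRpL10 (0.21), the base of the factor-recruiting stalk, mRpL3 (0.15), which lies near the peptidyl transferase centre, mRpL11 (0.15), next to the stalk, and mRpL20 (0.14). bonsai fell too, by 0.14 (adjusted p = 0.0343), while tko had a change of 0.13 (adjusted p = 0.169).

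In the female comparison as well, single arrays set part of the count. It was 13 without CD replicate 4 and 13 without HSD replicate 2. The calls of mRpS14, mRpS5, mRpL3, mRpL51, mRpS9, mRpL2, mRpS31, mRpL44, mRpS30, mRpS22 and mRpS28 held with each array left out in turn, while those of mRpL10 and mRpL28 were each lost in 5 of the 8 fits.

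A split by name was also described in F0 females. The 40 genes numbered after a bacterial protein (up to 36 in the large and 21 in the small subunit) gave all 6 rises and 7 falls, with a median change of 0.01. The 29 genes with higher numbers, whose proteins mostly lack a bacterial counterpart, gave 9 falls and no rise, with a median of -0.08. In F0 males the first class gave 1 rise and 8 falls and the second 3 falls, with medians of -0.06 and -0.05. Whether the classes differ was not tested.

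**Figure D3:**
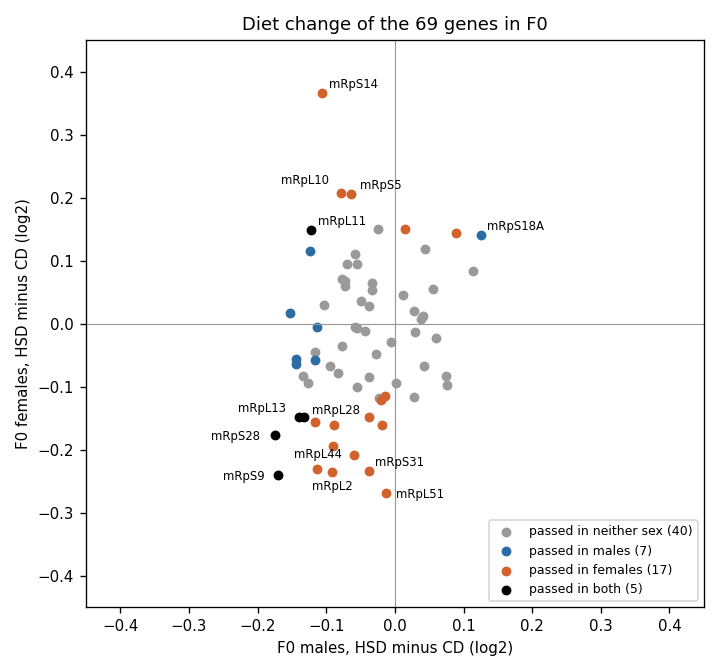
Log2 change on HSD of each of the 69 genes in F0 males (horizontal) and F0 females (vertical), coloured by the sex in which it passed adjusted p under 0.05. Most points lie left of 0, and mRpS14, mRpL10, mRpS5 and mRpL11 stand at upper left, lower in the male mean and higher in the female mean on HSD.

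Set side by side, 5 genes passed in both sexes, 7 in males alone, 17 in females alone and 40 in neither. mRpS9, mRpS28, mRpL13 and mRpL28 fell in both sexes. For mRpL28 the male arrays read 10.18, 10.13, 10.16 and 10.17 on CD and 10.09, 10.02, 9.99 and 10.02 on HSD. Its female arrays read 10.41, 10.55, 10.49 and 10.54 on CD and 10.29, 10.34, 10.39 and 10.36 on HSD, so that both sexes shifted down with no overlap. mRpL11 fell in males and rose in females, though its call was lost in 6 of 8 male and 4 of 8 female fits of that kind. It stood at 7.42, 7.405, 7.32 and 7.34 in CD males against 7.28, 7.23, 7.22 and 7.27 in HSD males, and at 8.56, 8.54, 8.51 and 8.61 in CD females against 8.80, 8.70, 8.67 and 8.65 in HSD females. Of the 9821 genes measured above the filter in males and in females, 1428 passed in each.

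**Figure D4:**
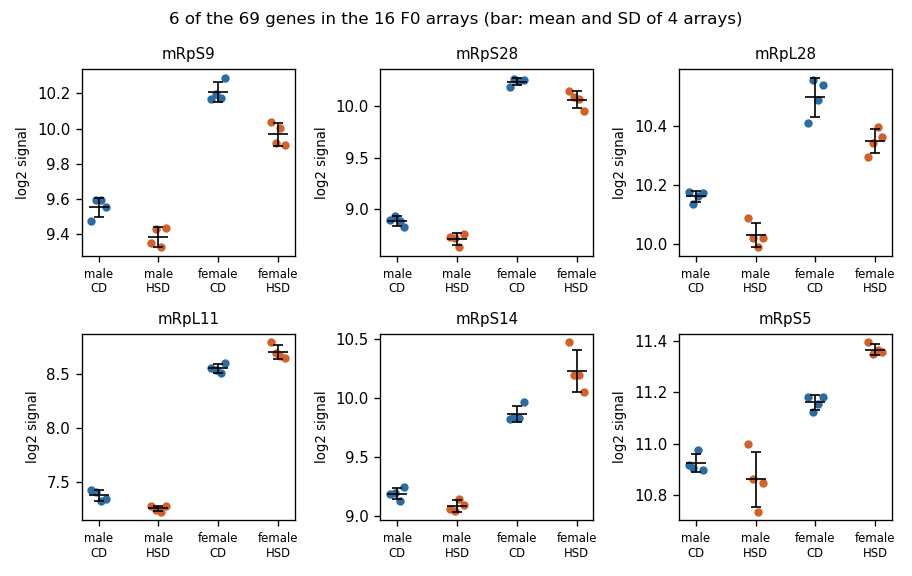
Log2 signal of 6 of the 69 genes in the 16 F0 arrays (points), with the mean and SD of 4 arrays, each panel with its own scale. mRpS9, mRpS28 and mRpL28 are lower on HSD in both sexes, mRpL11 moves in opposite directions in males and females, and mRpS14 and mRpS5 are higher on HSD in females.

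Whether the diet change differed between the sexes was tested as a difference of differences over the 16 F0 arrays. Of the 69 genes 10 passed, 6 with a higher change in females and 4 with a lower one. Over all 11380 genes tested 30.3% passed, 14.5% higher and 15.8% lower. mRpS14 differed most, by 0.47 (SE 0.10, adjusted p = 0.00168 by limma), with a change of -0.11 in males and 0.37 in females. mRpL10 (0.29), mRpL11 (0.27), mRpS5 (0.27), mRpL46 (0.24) and mRpL41 (0.15) also differed upwards. mRpL51 differed by -0.26 (SE 0.07, adjusted p = 0.0157), from -0.01 in males to -0.27 in females, followed by mRpS31 (-0.20), mRpL43 (-0.17) and mRpS17 (-0.16). mRpS17 lost its call in 11 of the 16 fits that left out 1 array. Neither mRpL43 nor mRpS17 nor mRpL41 passed within a sex. tko differed by 0.23 (adjusted p = 0.0449).

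Other gene groups of the mitochondrion were set beside the ribosomal proteins in F0. Over all genes tested 30.7% passed in males (19.6% higher, 11.1% lower) and 41.4% in females (23.1% higher, 18.2% lower). In the difference between the sexes 30.3% passed. Of 16 protein import genes tested in males 6 rose and none fell, among them the import receptor Tom70 (0.35) and the matrix co-chaperone Roe1 (0.26). In females 5 of 12 import genes fell and none rose, among them Tim9a (-0.19), the mitochondrial Hsp70 gene Hsc70-5 (-0.16) and the chaperonin gene Hsp60A (-0.15). In the difference between the sexes 8 of 16 import genes passed, all lower in females, with a median of -0.20. Among 9 translation factors mEFTu2 (0.17), of the factor that brings transfer RNAs to the ribosome, and mEFTs (0.28), of its nucleotide exchange factor, rose in males, and the ribosome recycling factor mRRF1 (-0.22) fell, while in females mEFTu2 (-0.16) alone passed.

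Respiratory chain subunits gave 9 rises and 5 falls of 72 in F0 males and 7 rises and 4 falls of 66 in F0 females, with medians of -0.03 and 0.00. Cytosolic ribosomal proteins gave 2 rises and 1 fall of 41 in males and 6 falls of 39 in females. Of 14 mitochondrial tRNA synthetases 2 rose and 1 fell in males, TrpRS-m (0.33) most, and 2 rose and 3 fell in females. Of 10 genes of mitochondrial DNA maintenance and transcription none passed in males, where 2 had an unadjusted p under 0.05 by limma. In females bsf, an RNA-binding protein of mitochondrial transcripts, fell by 0.35 (adjusted p = 8.67e-05), and mTerf3, which in flies acts in the assembly of mitochondrial ribosomes, fell by 0.22 (adjusted p = 0.00107).

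Ancestry was compared in the 8 descendant sets, as HSD ancestry minus CD ancestry among flies of the same generation, sex and own diet. In males 56 to 65 of the 69 genes had a slightly higher mean with HSD ancestry, but a single gene passed in each of 2 male sets and none in the other 2. In CD-fed F1 males 58 of the 69 genes were higher in the mean, with a median change of 0.07 against 0.01 over all genes, and 0.05 without replicate 1 or 2 of HSD ancestry. Of 20 testis markers 3 fell there and none rose, with a median of -0.15, while 2 of 11 muscle markers rose and 1 of 9 neuron markers fell. The mean of the fat body markers lay at 10.14 to 10.17 with CD ancestry and 10.25 to 11.34 with HSD ancestry. That of the female germline markers lay at 5.50 to 5.55 and 5.53 to 6.35. Replicates 1 and 4 of HSD ancestry, the 2 arrays that hold female-limited transcripts, were highest in both. Replicates 2 and 3 read 10.39 and 10.25 for the fat body list, which includes yolk protein genes, and 5.63 and 5.53 for the germline list. The part of these tissues was not tested. mRpL39 passed, as did 4.52% of all genes tested. In HSD-fed F1 males 65 of 69 were higher, with a median of 0.06 against 0.00, while 51.6% of all genes were higher. There 0.0% of all genes passed with limma, although 19 of the 69 (27.5%) had an unadjusted p under 0.05 and 11.7% of all 10916 genes did.

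mRpL39 read 7.21, 7.24, 7.24 and 7.37 in CD-fed F1 males of CD ancestry and 7.52, 7.47, 7.42 and 7.53 in those of HSD ancestry. The groups did not overlap, and it rose by 0.22 (SE 0.05, adjusted p = 0.0410 by limma). Without the 2 arrays that hold female-limited transcripts its change was 0.18 (adjusted p = 0.317), none of the 69 genes passed, 52 were higher and the median was 0.04. The call was also lost without replicates 1, 2 or 3 of CD ancestry or replicates 1, 2 or 4 of HSD ancestry, and the number of genes past the threshold ran from 0 to 3. It was 2 without replicate 2 of CD ancestry, 3 without replicate 3 of HSD ancestry, and 0 without any of the other 5 arrays just named. In HSD-fed F1 males no array passed the limit for female-limited transcripts, but the set was not free of them. Replicate 4 stood 0.39 above the lowest array of the set with CD ancestry and 0.34 with HSD ancestry. Replicates 1 to 3 stood 0.06 to 0.14 above it with HSD ancestry and at most 0.01 with CD ancestry. The part of such transcripts in this comparison was not tested. The smallest adjusted p there was that of mRpS21. It read 10.51, 10.57, 10.63 and 10.55 with CD ancestry and 10.76, 10.86, 10.77 and 10.71 with HSD ancestry. Its groups did not overlap, with a change of 0.21 (SE 0.04, adjusted p = 0.124), followed by mRpL41 (0.16, adjusted p = 0.185) and mRpL52 (0.15, adjusted p = 0.254).

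In F1 females no gene of the 69 passed in either set. On CD 57 of 69 were higher with HSD ancestry, with a median of 0.05 against 0.02 over all genes, of which 2.65% passed. With 1 array left out the median ran from 0.03 (replicate 4 of CD ancestry) to 0.09 (replicate 3 of CD ancestry), and it was 0.04 without replicate 2 of HSD ancestry. Of the 69 genes 3 had an unadjusted p under 0.05, as did 18.3% of all genes, mRpL35 (0.17, adjusted p = 0.163), mRpL27 (0.19, adjusted p = 0.196) and mRpL13 (0.18, adjusted p = 0.220), and their groups overlapped. On HSD 28 of 69 were higher, with a median of -0.0037, and without the array that holds male-limited transcripts 38 were higher, with a median of 0.004. There 4.12% of all genes passed, and 2 of the 69 and 18.5% of all genes had an unadjusted p under 0.05. mRpL28 had the smallest, with a change of 0.08 (SE 0.03, adjusted p = 0.124), from 10.96, 10.93, 10.99 and 10.92 to 11.02, 11.05, 11.02 and 11.05. In the same set 13 of 69 respiratory chain subunits tested rose and none fell, with a median of 0.08. These values include replicate 1 of HSD ancestry, which holds male-limited transcripts, and were not recomputed without it. Its list mean was 10.12, against 10.07 to 10.08 in the other arrays of HSD ancestry and 9.94 to 10.01 with CD ancestry.

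In F2 males on CD 56 of the 69 genes were higher with HSD ancestry, with a median of 0.10 against 0.03 over all genes, and mRpL38, related to phosphatidylethanolamine-binding proteins, passed, as did 2.99% of all genes. It read 8.30, 8.22, 8.36 and 8.28 with CD ancestry and 8.44, 8.65, 8.69 and 8.66 with HSD ancestry. The groups did not overlap, and it rose by 0.32 (SE 0.07, adjusted p = 0.0384 by limma), with replicate 1 of HSD ancestry well below the other 3 arrays. Without that replicate its change was 0.37, and the call was lost without replicates 1, 2 or 3 of CD ancestry or replicates 2, 3 or 4 of HSD ancestry, none of the 69 genes passing in those fits. Without replicate 4 of CD ancestry 2 genes passed, and without replicate 2 of CD ancestry 48 were higher and the median was 0.06. Markers moved in the same comparison: the mean of the testis genes lay at 9.82 to 9.91 with CD ancestry and 9.74 to 9.78 with HSD ancestry, and that of the muscle genes at 10.43 to 10.57 and 10.58 to 10.66. Of 20 testis markers 3 fell and of 11 muscle markers none passed, and their part in the result was not tested. In F2 males on HSD 65 of 69 were higher, with a median of 0.09 against 0.01, 0.201% of all genes passed and none of the 69 did. An unadjusted p under 0.05 was reached by 5 of the 69 and by 7.32% of all genes. Without replicate 2 of HSD ancestry 50 genes were higher and the median was 0.03. Without the 3 arrays that hold female-limited transcripts, which leaves a single array of HSD ancestry assumed to vary like the others, 55 were higher and the median was 0.04. The array left, replicate 3, itself stood 0.38 above the lowest array of the set in female-limited transcripts. The arrays of CD ancestry stood at most 0.02 above it, so this fit is not free of such transcripts. With all arrays of this set, eggshell markers were higher in the mean in 10 of 11 tested, with 2 past the threshold and a median of 0.85. These marker values include the 3 arrays that hold female-limited transcripts and were not recomputed without them.

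F2 females gave no gene of the 69 past the threshold, and their medians were below 0. On CD 27 of 69 were higher with HSD ancestry, with a median of -0.02 against -0.04 over all genes, of which 1.29% passed. That median turned to 0.03 after quantile normalization. With 1 array left out it ran from -0.05 (replicate 1 of CD ancestry, or 2 of HSD ancestry) to 0.0043 (replicate 3 of HSD ancestry), with 13 to 36 genes higher. Of the 69 genes 3 had an unadjusted p under 0.05, as did 21.8% of all genes, mRpS30 (-0.20, adjusted p = 0.158) the smallest. Eggshell markers fell in 11 of 14 in this set, with a median of -0.995, and their part was not tested. On HSD 9 of 69 were higher, with a median of -0.05 against -0.02, 0.789% of all genes passed, and 7 of the 69 and 17.9% of all genes had an unadjusted p under 0.05 by limma. With 1 array left out 6 to 15 of the 69 were higher, 6 without replicate 2 of either ancestry and 15 without replicate 4 of HSD ancestry. mRpL18 read 9.70, 9.68, 9.69 and 9.72 with CD ancestry and 9.53, 9.55, 9.49 and 9.60 with HSD ancestry. The groups did not overlap, but the change of -0.16 (SE 0.04) had an adjusted p of 0.0909.

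**Figure D5:**
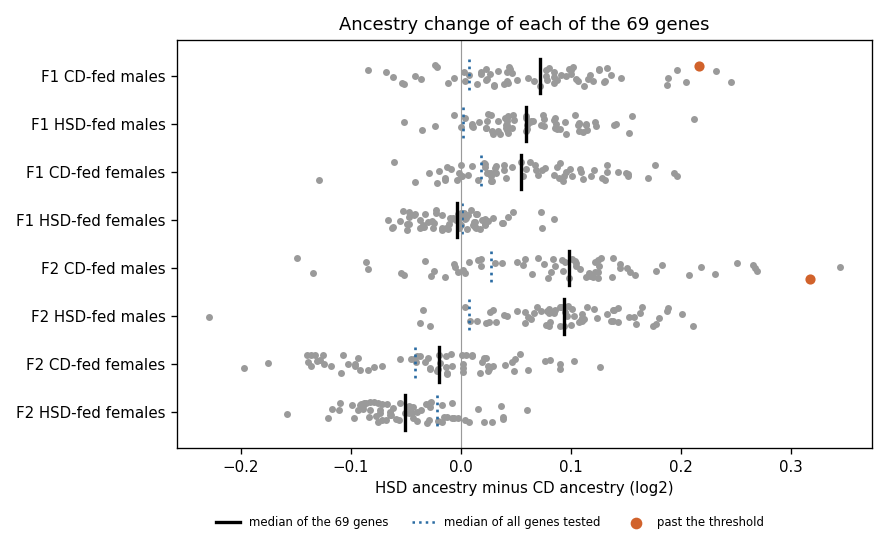
Log2 difference between HSD and CD ancestry of each of the 69 genes in the 8 descendant sets (grey points), with the median of the 69 genes (black bar), the median of all genes tested (dotted blue bar) and genes past the threshold in orange. In the 4 male sets the medians lie between 0.06 and 0.10, and only mRpL39 in CD-fed F1 males and mRpL38 in CD-fed F2 males passed.

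No gene of the 69 passed in more than 1 of the 8 ancestry comparisons. In the other 3 male sets the change of mRpL38 was 0.20 in CD-fed F1 males (adjusted p = 0.0569), 0.04 in HSD-fed F1 males (adjusted p = 0.783) and 0.16 in HSD-fed F2 males (adjusted p = 0.583). That of mRpL39 was 0.0044 in HSD-fed F1 males (adjusted p = 0.978), -0.15 in CD-fed F2 males (adjusted p = 0.292) and 0.19 in HSD-fed F2 males (adjusted p = 0.598). In the 4 female sets mRpL38 ran from -0.14 to 0.03 and mRpL39 from -0.14 to 0.04. The sign of mRpL39 thus differed between sets of males. Neither tko nor bonsai passed in any ancestry comparison or difference. In the 8 comparisons tko ran from -0.04 to 0.11, the latter in HSD-fed F1 males (adjusted p = 0.263), and bonsai from -0.14 in CD-fed F2 females (adjusted p = 0.177) to 0.17 in HSD-fed F2 males (adjusted p = 0.680).

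Whether the ancestry change depended on the flies' own diet was tested as a difference of the 2 within-set changes. None of the 69 genes passed in F1 males, F1 females, F2 males or F2 females, where 3.77%, 2.86%, 0.923% and 0.169% of all genes did with limma. Unadjusted p under 0.05 was reached by 9, 7, 2 and 1 of the 69, and by 20.1%, 15.8%, 13.4% and 10.6% of all genes. In F1 females 57 of 69 had a lower change on HSD than on CD, with a median difference of -0.07 against 0.00 over all genes, and -0.04 without replicate 2 of the CD-fed group of HSD ancestry. The smallest adjusted p over the 4 comparisons was that of mRpS21 in F1 males, whose ancestry change was 0.27 higher on HSD (SE 0.08, adjusted p = 0.0589).

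Own diet could be followed in the descendants only between separately normalized sets, so that diet and batch cannot be told apart and no test was made. HSD-fed minus CD-fed, the median over the 69 genes was 0.56 and 0.55 in F1 males of CD and HSD ancestry, where that over all genes was 0.42 and 0.41. In F1 females it was 0.25 and 0.16 against 0.34 and 0.33. The sign was the opposite in F2, with -0.54 and -0.57 in males against -0.34 and -0.36 over all genes, and -0.35 and -0.39 in females against -0.13 and -0.12. Relative to the all-gene median 47 of the 69 genes were higher in F1 males of each ancestry, 23 and 17 in F1 females, 15 and 17 in F2 males and 15 and 14 in F2 females.

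The 69 genes varied together from array to array. Deviations from the group mean over the 80 arrays gave a median Pearson r of 0.44 over the 2346 pairs of mitochondrial ribosomal protein genes, 94.4% of them positive. Over all gene pairs the median was 0.02. It was 0.18 among respiratory chain subunits, 0.16 among cytosolic ribosomal proteins, and 0.26 between the 69 genes and the respiratory chain. These values are descriptions, since genes on 1 array share its RNA, labelling and normalization. They include the 6 arrays that hold opposite-sex transcripts and were not recomputed without them.

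Within the family mRpL49 followed the mean of the others most closely (r = 0.87), with mRpL30 (0.85), mRpS16 (0.83) and mRpL42 (0.83) next. mRpS5 ran against it (r = -0.48), mRpS30 was nearly unrelated to it (0.08), and mRpL39 had 0.21. The SD of mRpS5 was 0.56 in HSD-fed F2 males of HSD ancestry, against 0.11 in those of CD ancestry. In the former group replicate 2 also stood apart in the family mean, and r was not recomputed without that group. Outside the family the 5 genes whose deviations were most like the family mean over the 80 arrays were the signal recognition particle gene Srp19 (0.87), CG3663 (0.86), CG15027 (0.82), the RNA polymerase subunit gene Polr2H (0.82) and the complex I subunit gene NdufV3 (0.81).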

How the data were processed

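RNA of whole flies was measured on Affymetrix Drosophila Genome 2.0 arrays, with 250 ng of RNA amplified and labelled with biotin per the labels. The authors deposited log2 signals per probe set, made with RMA, per the submitters' processing notes, which also name limma and give no versions. Per the values, the sorted signals of 8 arrays differed by a median of 0.04 to 0.11 within a normalized set and by 1.15 over all 80 arrays. Of 18952 probe sets 183 controls, 402 with several symbols and 4720 with none were left out. Symbols came from the platform annotation.

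Each comparison was fitted across all genes with limma (lmFit, contrasts.fit, eBayes, two-sided) on the arrays compared, without genes whose group means were under the 25th percentile of probe sets in every group, and with Benjamini-Hochberg adjustment at 0.05. Arrays have no counts, and 4 per group limit the precision. Sex-limited genes were 78 female and 652 male genes at least 5 log2 units apart in CD-fed F0 flies, and an array stood apart at over 0.5. Replicate numbers were not treated as pairs, since in no comparison did all 4 correlations of same-numbered deviations exceed 0.1.

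The genes and lists were chosen with earlier results of these data known. By rule, the text names up to 8 rises and 8 falls past the threshold without overlap, up to 4 each way in differences, the 3 smallest p where none passed, genes past it in both F0 sexes, tko, bonsai, and up to 3 rises and 3 falls per list. Other genes are named to complete a count, after their values were seen. Genes without a named probe set, and promoter sequences, were not analysed here. Fits were tested on simulated data. R 4.3.3, limma 3.58.1, version 1.17.8 of data.table, Python 3.11.15, pandas 2.3.3, numpy 2.4.6 and matplotlib 3.10.9 were used.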

Additional observations from a re-analysis of the deposited data

Results flagged for a closer look

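Of 110 groups of 4 arrays checked for a single array far from the others, 7 had a gap beyond the 95% critical value of Dixon's test for 4 values, and chance gives about 1 in 20. For the mean of the 69 genes the gap was 0.896 of the range in CD-fed F1 males of CD ancestry, where the arrays spanned only 8.65 to 8.68, 0.915 in HSD-fed F2 males of HSD ancestry, where replicate 2 was high, and 0.889 in HSD-fed F2 females of HSD ancestry, at 9.67 to 9.72. For single genes it was 0.864 for mRpL35 in HSD-fed F0 males (replicate 1 high), 0.881 for mRpL13 in CD-fed F0 males (replicate 1 low), 0.877 for mRpS14 in CD-fed F0 females (replicate 4 high) and 0.847 for mRpL38 in CD-fed F2 males of HSD ancestry (replicate 1 low).

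The diet change in F0 differed between females and males, by the test of the difference itself, for mRpS14 (0.47), mRpL10 (0.29), mRpL11 (0.27), mRpS5 (0.27), mRpL51 (-0.26), mRpS31 (-0.20), mRpL43 (-0.17), mRpS17 (-0.16) and tko (0.23).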

How the results depend on the processing

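The counts of the 69 genes past the threshold in 15 comparisons were recomputed without the dim filter, after quantile normalization, with the mean of all probe sets, with a trended robust prior, with the replicate block, without the 6 arrays that hold opposite-sex transcripts, and with each array left out. In F0 males the count of 12 was 19 after quantile normalization (0 higher, 19 lower). The fit with the replicate block gave 3 in F0 males, 12 in F0 females in place of 22, and 0 in CD-fed F2 males in place of 1, and the shared numbers alone do not make pairs. In CD-fed F1 males the count of 1 was 4 after quantile normalization, 2 with the mean of all probe sets, 7 with the trended prior and 0 without the opposite-sex arrays. The trended prior also gave 1 in HSD-fed F1 males, 2 in CD-fed F2 males, 1 in HSD-fed F2 females and 2 for the F1 male difference between diets. With 1 array left out the count ran from 3 to 13 in F0 males, 13 to 23 in F0 females, 8 to 11 for the difference between sexes, 0 to 3 in CD-fed F1 males, 0 to 2 in CD-fed F2 males, 0 to 1 for the F1 male and 0 to 3 for the F1 female difference between diets. In the 65 pairs of a named gene and a comparison that were recomputed, no change reversed its sign. These pairs had been chosen for a small p. Where the groups did not overlap, leaving out 1 array could not reverse the sign. Genes of other lists, and genes named only to complete a count, were not recomputed. The cause of these shifts was not tested. The number of arrays limits how small a change could pass.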
